A study of Mus musculus with 7 samples.

Results

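The peaks described here lie in 4 mouse genome windows, on chromosomes 8, 2, 14 and 4, that hold side-by-side gene or repeat copies. They were the 409 of the 98723 peaks of an ATAC-seq count table whose midpoint fell between 126000001 and 127000000 on chromosome 8, 175000001 and 178000000 on chromosome 2, 3000001 and 8000000 on chromosome 14, or 42000001 and 43000000 on chromosome 4, in the coordinates of the mm9 build. Array peaks, or members, means all peaks of these windows below, and not every one of them lies in a repeated stretch. The windows held 120, 96, 124 and 69 peaks in that order. They were chosen by their summed counts in these 7 libraries, which were known to differ, so the levels below are a description, and a test was used only for the comparison of vectors across all peaks of the table.

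ATAC-seq reads chromatin accessibility from the places where a transposase inserts adapters into open DNA. Ribosomal RNA genes and many zinc-finger, chemokine and rodent-specific gene families are tandemly repeated, and the number of copies in an array can differ between chromosomes and individuals. A short read that matches several copies equally well cannot be placed on 1 of them, so counts at a peak in such an array can hold reads from its other copies. The 5S rRNA genes, transcribed by RNA polymerase III, form such a cluster of short units; the KRAB zinc-finger genes encode DNA-binding proteins with many near-identical relatives; Ccl21 genes encode a chemokine that guides T cells and dendritic cells into lymph nodes.

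The cells were C57BL/6 bone marrow haematopoietic stem cells. Bone marrow enriched for cKit came from donors 24 months old, received a control or a Runx3-expressing lentivirus and was transplanted into lethally irradiated recipients. The donor-derived, transduced stem cells were sorted 16 weeks later as LSK Flt3-CD150+CD48-CD45.2+hCD2+ cells and were processed by Omni-ATAC, a form of ATAC-seq for few cells. There were 4 control libraries, numbered 1 to 4, and 3 Runx3 libraries, numbered 1, 3 and 4, and both groups shared the age, the viral transduction and the transplantation. Whether each library stands for its own recipient or donor is not in the labels, so any p-value reflects only how these libraries scatter, and that scatter may be technical. Runx3 is a runt-domain transcription factor that acts in T-cell and blood development. Since the mm9 gene annotation was not used here, neither the identity of the sorted cells nor Runx3 itself was checked in these data.

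Total counts in peaks ran from 1738164 in Runx3 library 1 to 3758422 in control 4, and 3709974 in control 3. Levels are CPM, a peak's count scaled to the total of its library and corrected with TMM, edgeR's trimmed mean of M-values, and 3 counts were worth 0.798 to 1.73 CPM. All 4 windows together took from 0.432% of the counts in Runx3 4 to 0.724% in control 3.

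What stands in these stretches was looked up by neighbouring genes in RefSeq annotation of a later build, GRCm38.p6, and was not joined to the peaks by coordinate. On chromosome 8, between Gas8 and Rhou, RefSeq lists 54 genes, of which 48 have the biotype ribosomal RNA. Counting entries named as 5S rRNA too, which adds pseudogenes, the longest uninterrupted run holds 50. The run from Edn3 to Phactr3 on chromosome 2 holds 80 genes, 61 with a predicted-gene (Gm) symbol and 10 with a zinc-finger (Zfp) symbol. The run between Galt and Phf24 on chromosome 4 holds 52 genes, of which 33 have a Gm symbol. The gene run on chromosome 14 was not analysed here. Promoter sequences of 300 bases, 250 before and 50 after the annotated start, were at hand for 48 genes of the chromosome 2 run and 27 of the chromosome 4 run. An identical promoter existed elsewhere in the same run for 6 and 11 of these genes, and a partner with at most 30 mismatches for 11 and 12. No pair this close was found among the 3 promoters of the chromosome 8 run.

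One pair from each of chromosomes 2, 14 and 4, picked as an example, shows how alike 2 copies can be. Sequences are RefSeq's, GRCm38.p6, 5′ to 3′ on the gene's strand, and capitals mark the only bases at which the 2 partners differ. Zfp968 (chr2:175372186-175372485, plus strand) and Zfp973 (chr2:176670272-176670571, plus strand), both zinc-finger genes, differ at 1 base. Gm3685 (chr14:7044858-7045157, minus strand) and Gm10338 (chr14:7595480-7595779, minus strand), predicted genes on chromosome 14, differ at 2. Ccl21d (chr4:41903363-41903662, plus strand) and Gm10591 (chr4:42611873-42612172, plus strand) differ at 1.
Zfp968: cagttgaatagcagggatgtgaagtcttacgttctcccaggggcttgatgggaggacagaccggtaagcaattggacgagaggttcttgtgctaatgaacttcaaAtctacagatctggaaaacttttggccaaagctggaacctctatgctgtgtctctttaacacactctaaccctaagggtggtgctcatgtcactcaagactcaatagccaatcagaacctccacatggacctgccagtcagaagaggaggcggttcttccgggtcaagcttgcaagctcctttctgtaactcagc
Zfp973: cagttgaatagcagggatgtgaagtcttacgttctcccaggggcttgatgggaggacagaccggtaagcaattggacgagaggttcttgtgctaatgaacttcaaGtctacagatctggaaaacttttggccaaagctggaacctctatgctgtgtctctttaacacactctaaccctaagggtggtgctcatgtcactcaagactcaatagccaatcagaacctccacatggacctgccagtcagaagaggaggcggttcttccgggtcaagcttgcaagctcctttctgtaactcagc
Gm3685: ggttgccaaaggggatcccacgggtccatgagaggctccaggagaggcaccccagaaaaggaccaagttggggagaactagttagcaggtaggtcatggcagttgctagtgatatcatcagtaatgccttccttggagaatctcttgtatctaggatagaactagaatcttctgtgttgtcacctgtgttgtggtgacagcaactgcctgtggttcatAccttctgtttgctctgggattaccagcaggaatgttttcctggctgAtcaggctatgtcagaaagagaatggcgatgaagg
Gm10338: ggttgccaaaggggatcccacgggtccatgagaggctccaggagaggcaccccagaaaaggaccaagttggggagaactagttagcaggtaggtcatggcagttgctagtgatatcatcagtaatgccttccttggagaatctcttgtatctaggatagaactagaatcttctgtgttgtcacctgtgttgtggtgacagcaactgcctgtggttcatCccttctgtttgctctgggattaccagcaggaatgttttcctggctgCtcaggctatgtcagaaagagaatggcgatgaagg
Ccl21d: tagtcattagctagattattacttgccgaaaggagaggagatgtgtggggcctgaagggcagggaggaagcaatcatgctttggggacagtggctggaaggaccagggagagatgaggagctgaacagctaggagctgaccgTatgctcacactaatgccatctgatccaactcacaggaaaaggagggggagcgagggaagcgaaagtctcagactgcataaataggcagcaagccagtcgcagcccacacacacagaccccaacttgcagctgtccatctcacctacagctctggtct
Gm10591: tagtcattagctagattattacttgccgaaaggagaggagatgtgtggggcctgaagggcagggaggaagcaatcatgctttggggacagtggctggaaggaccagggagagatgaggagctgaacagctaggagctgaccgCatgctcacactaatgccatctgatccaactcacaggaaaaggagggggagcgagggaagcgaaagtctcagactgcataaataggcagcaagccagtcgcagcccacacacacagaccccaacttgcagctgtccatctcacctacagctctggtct
A read that covers none of these bases matches both partners, and how the counts were divided between such matches is not given in the sources used here.

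The spacing of the peaks repeated too, most regularly in a part of the chromosome 8 window. In the chromosome 8 window 49 peaks stood in an evenly spaced row from 126062387 to 126148009, a span of 85.6 kb. Of its 48 gaps between midpoints, 46 were 1544 to 1857 bases long (median 1704) and the other 2 were 3346 and 3392 bases, the length of a double step, so the row has room for 51 positions. The nearest peaks outside the row were 20051 bases before it and 5225 bases after it. The other 71 peaks of the window had a median gap of 6646 bases and formed no repeated pattern.

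Repetition was less regular on the other chromosomes. On chromosome 2, 13 of 95 gaps were 2324 to 2492 bases long and 9 were 22586 to 23051 bases. On chromosome 14, 11 of 123 gaps were 22429 to 22967 bases, and on chromosome 4, 8 of 68 were 10387 to 10927 bases and 5 were 15671 to 16003 bases. A stretch of 3 successive gaps, at least 5000 bases long in all, was counted as recurring where it came back elsewhere in the window, forward or mirrored, with each gap within 150 bases. By this measure 32 of 96 peaks on chromosome 2, 20 of 124 on chromosome 14, 40 of 69 on chromosome 4 and all 49 of the chromosome 8 row lay in recurring stretches. In 1980 other windows of 1 Mb with at least 10 peaks, 0.360% of the peaks did, and 39 windows held any. The arrays on chromosomes 2 and 14 are longer, which leaves more room for a stretch to recur. Counted within 1 Mb windows as well, 4 of the 10 array windows held any, with 27.6% of the peaks of the 10. The recurring pairs were forward in 5 and mirrored in 9 cases on chromosome 2, forward in all 4 on chromosome 14, and forward in 3 and mirrored in 7 on chromosome 4.

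Of the row and the whole arrays on chromosomes 2, 14 and 4, the row had the widest range of summed level between libraries. Its 49 peaks summed to 990, 1136, 2002 and 1396 CPM in controls 1 to 4, and to 878, 1194 and 877 CPM in Runx3 libraries 1, 3 and 4. Control 3 stood 1.86-fold above the mean of the other 6 libraries, and the highest library was 2.28-fold above the lowest. The Runx3 libraries overlapped the controls, since Runx3 3 lay above controls 1 and 2.

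**Figure D1:**
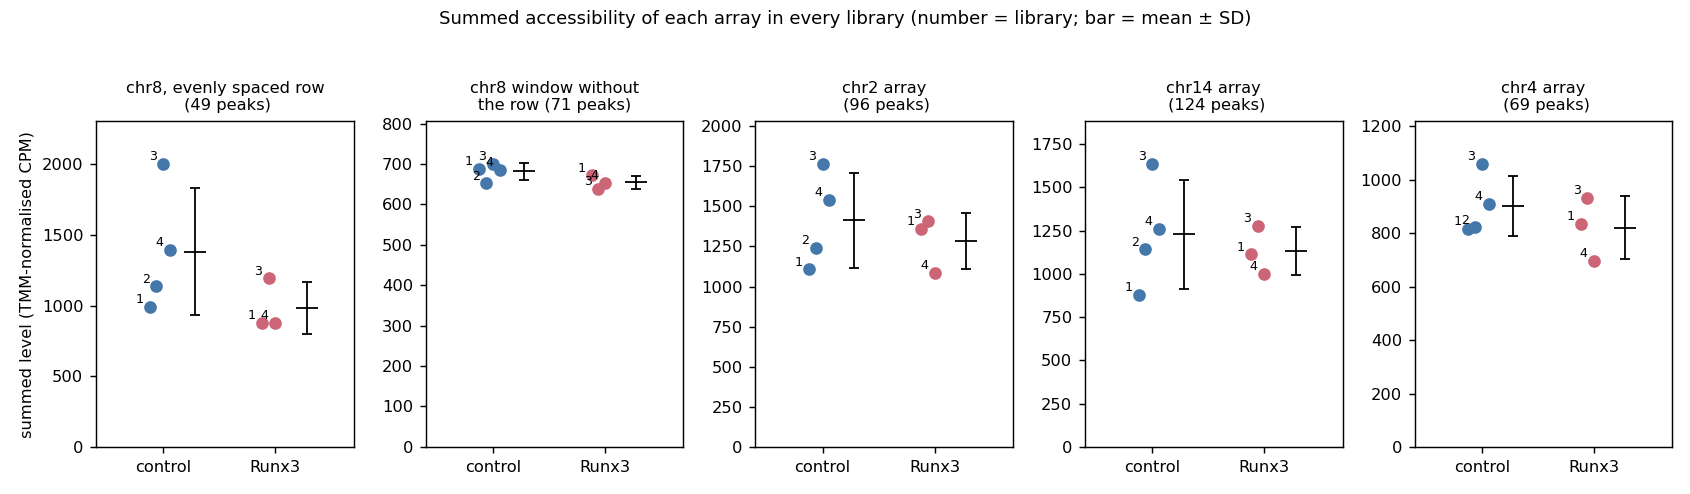
Summed TMM-normalised CPM (vertical axes, each from 0) of the chromosome 8 row, the rest of its window and the other 3 arrays, with 1 numbered point per library, controls in blue, Runx3 in red, and bars for the mean ± SD (4 controls, 3 Runx3). Control 3 is the highest point in every panel, at 2002 CPM in the row, and the groups overlap in every panel.

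The highest library was the same along the whole row, and the lowest was not. Control 3 was highest at 49 of 49 peaks, against 12.7% of all 57504 peaks tested. The windows were chosen with the levels of these libraries known, and the 49 peaks share their variation. This count is thus a description and not 49 separate cases. The lowest library was Runx3 4 at 22 peaks, Runx3 1 at 20, control 1 at 6 and Runx3 3 at 1. At the most accessible peak of the row, 126110098 to 126110458, levels were 28.4, 37.5, 54.9 and 46.1 CPM in controls 1 to 4 and 23.4, 41.7 and 24.5 CPM in Runx3 1, 3 and 4. The peak at its far end, 126147262 to 126148009, had 30.3, 36.8, 45.6 and 39.3 CPM in the controls and 30.3, 31.7 and 22.0 CPM in the Runx3 libraries. At both of these peaks the groups overlapped.

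Peaks of the row moved by nearly one common factor per library. If every peak of a set kept a fixed share of the set's counts in each library, the chi-square of the table of peaks by libraries would be near its degrees of freedom, apart from counting error. The ratio was 0.960 for the row, with a mean of 72.4 counts per peak and library. In 1145 other 1 Mb windows with at least 20 tested peaks it had a median of 1.49 and a 5th to 95th percentile range of 1.21 to 2.10, and none was at or below the row. The other peaks of the same window reached 2.10, and the windows on chromosomes 2, 14 and 4 reached 1.96, 1.58 and 1.40.

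The remainder of the chromosome 8 window did not share the pattern. Its 71 peaks summed to 689, 652, 701 and 686 CPM in the controls and 672, 639 and 654 CPM in the Runx3 libraries, a range of 1.10-fold. The most accessible peak outside the row, 126544317 to 126545694, had 52.0, 47.1, 44.5 and 48.7 CPM in the controls and 55.4, 40.2 and 43.7 CPM in the Runx3 libraries, with control 3 in the lower part of the range. The next, 126794878 to 126795901, had 41.2, 42.5, 52.0 and 42.4 CPM in the controls and 44.0, 48.7 and 48.2 CPM in the Runx3 libraries. One peak outside the row, 126701068 to 126701770, differed widely, with 1.42 CPM in control 1 against 18.6, 26.9 and 26.9 CPM in controls 2 to 4 and 12.6, 9.27 and 17.5 CPM in the Runx3 libraries. Control 3 was highest at 6 of the 41 tested peaks of this remainder.

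On chromosome 2 the 96 peaks summed to 1106, 1240, 1765 and 1541 CPM in controls 1 to 4, and to 1360, 1408 and 1084 CPM in Runx3 1, 3 and 4. Control 3 and control 4 were the highest, and control 1 and Runx3 4 the lowest, with 1.63-fold between the ends. Of the 53 tested peaks, 30 were highest in control 3, and 37 were lowest in control 1 (19) or Runx3 4 (18). The most accessible, 177812590 to 177813631, had 55.8, 49.2, 66.9 and 57.7 CPM in the controls and 60.6, 46.4 and 47.0 CPM in the Runx3 libraries. Among the 4 most accessible peaks, the spread was widest at 176193906 to 176195182, which ranged from 26.6 CPM in Runx3 4 to 55.7 CPM in control 3.

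Peaks of alike shape on chromosome 2 fell into kinds with different library orders. This split, and those given next for chromosomes 14 and 4, used width, spacing and total count and was chosen after the values were seen. Of 39 tested peaks at least 700 bases wide, 11 had a peak under 300 bases wide standing 2300 to 2500 bases away. These 11 summed to 196, 269, 360 and 331 CPM in the controls and 299.5, 342 and 242 CPM in the Runx3 libraries, so control 1 was lowest and was so at 10 of the 11. The other 28 summed to 765, 838, 1218 and 1006 CPM in the controls and 887, 888 and 686 CPM in the Runx3 libraries, with Runx3 4 lowest overall and at 17 of the 28. Within the 11 the chi-square ratio was 0.902, and within the 28 it was 1.79. The 28 are the wide peaks left over, with 108 to 1065 counts each, so their sum mixes less alike peaks.

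The pattern weakened towards the far end of the chromosome 2 window. Up to the last peak of a recurring stretch, 176454877 to 176455814, control 3 was highest at 19 of 26 tested peaks and stood 1.46-fold above the mean of the others in summed level. Beyond it, control 3 was highest at 11 of 27 tested peaks and stood 1.25-fold above.

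The chromosome 14 window, the longest at 5 Mb, summed to 879, 1142, 1636 and 1259 CPM in the controls and 1113, 1278 and 1002 CPM in the Runx3 libraries. Control 3 was again highest, 1.47-fold above the mean of the others, while control 1 was lowest, 1.86-fold below control 3. Control 3 was the highest library at 52 of 90 tested peaks and control 1 the lowest at 45. The 3 most accessible peaks, 1803 to 1836 bases wide, were highest in control 3 and lowest in Runx3 4. The peak at 5943750 to 5945553 had 58.2, 56.7, 78.4 and 73.5 CPM in the controls and 57.7, 59.5 and 52.4 CPM in the Runx3 libraries. At 6747287 to 6749116 the range was 43.7 CPM in Runx3 4 to 79.5 CPM in control 3, and at 5659137 to 5660973 it was 47.0 to 79.2 CPM in the same libraries.

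A class of 11 peaks on chromosome 14 had the widest range in summed level of the 6 classes of peaks described here. They stood alone, with no other peak midpoint within 5000 bases, were 395 to 737 bases wide and held 237 to 282 counts each. Their sums were 47.8, 170, 248 and 140 CPM in controls 1 to 4, and 179, 115 and 77.8 CPM in Runx3 1, 3 and 4. Control 1 was thus 5.20-fold below control 3, and it was the lowest and control 3 the highest library at all 11. At 4643518 to 4643918, for instance, control 1 had 2.84 CPM, controls 2 to 4 had 15.3, 22.1 and 13.96 CPM, and Runx3 1, 3 and 4 had 17.7, 10.8 and 4.99 CPM. The chi-square ratio within these 11 was 0.759 at a mean of 36.9 counts per peak and library. Runx3 1, low in the chromosome 8 row, was second highest here.

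The 11 widest peaks of chromosome 14, 1658 to 1836 bases, had another order. They summed to 355, 398, 546 and 467 CPM in the controls and 373, 445 and 343 CPM in the Runx3 libraries, a 1.59-fold range, with a chi-square ratio of 0.977. Over the 7 libraries the correlation of their log2 level with that of the chromosome 8 row was 0.961, and that of the 11 isolated peaks was 0.583. These are descriptions over the same 7 libraries.

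**Figure D2:**
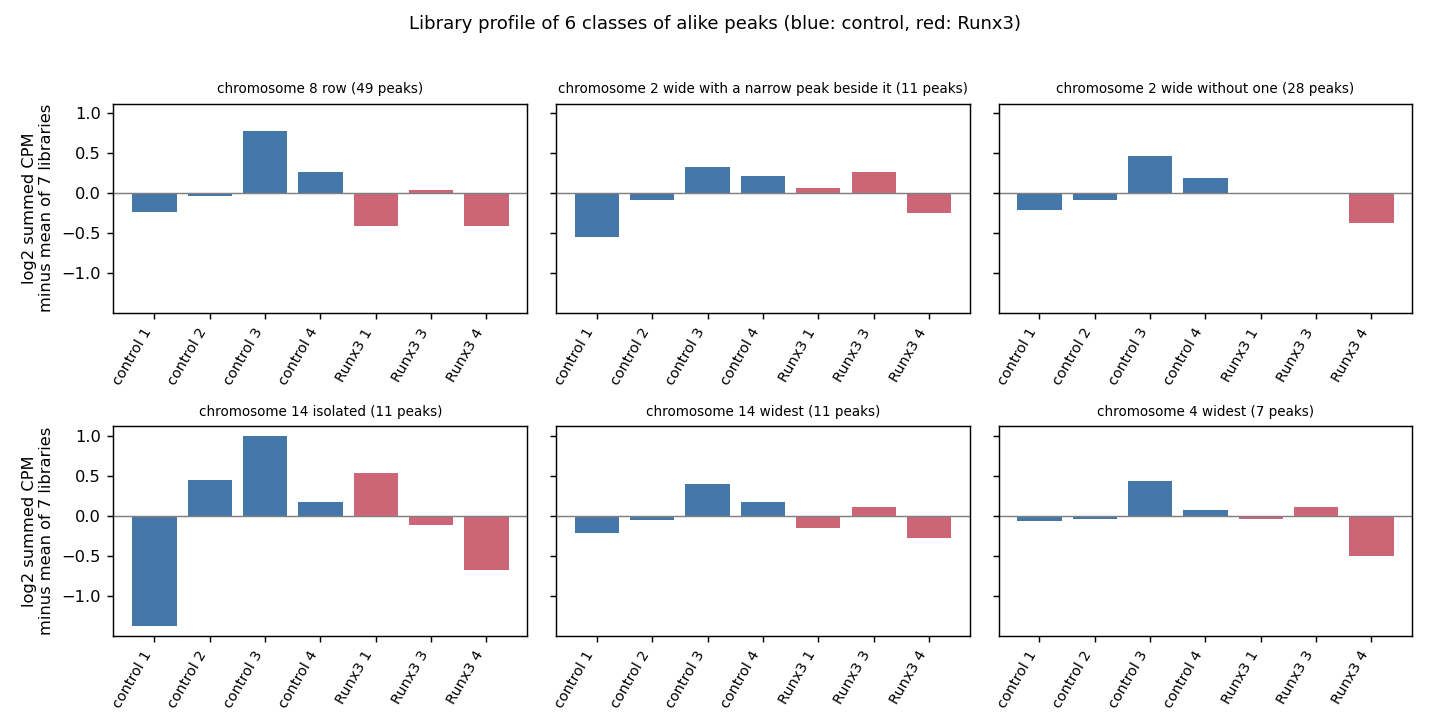
Log2 of the summed CPM minus its mean over 7 libraries (vertical axes) for 6 classes of peaks grouped by width, spacing and total count, with 1 bar per library, controls in blue and Runx3 in red. The class of 28 wide peaks of chromosome 2 holds those left over. Control 3 is above the mean in all 6, while control 1 falls furthest, to 47.8 CPM against 248 CPM in control 3, in the isolated peaks of chromosome 14.

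On chromosome 4 the differences were smaller. The 69 peaks summed to 817, 823, 1060 and 910 CPM in the controls and 835, 933 and 696 CPM in the Runx3 libraries, with control 3 1.27-fold above the mean of the others and Runx3 4 lowest. Control 3 was highest at 29 of 48 tested peaks and Runx3 4 was lowest at 18. The 7 widest peaks, 1415 to 1589 bases, summed to 333, 338, 469 and 366 CPM in the controls and 338, 376 and 244 CPM in the Runx3 libraries. At each of the 7, control 3 was highest and Runx3 4 lowest, and their chi-square ratio of 0.470 was the lowest of the 6 classes. One of them, 42452355 to 42453944, had 55.3, 59.2, 77.9 and 66.6 CPM in the controls and 56.0, 61.0 and 37.8 CPM in the Runx3 libraries.

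The far end of the chromosome 4 window went the other way. The most accessible peak of the window, 42962386 to 42963386, lies there, with 90.3, 74.9, 69.3 and 77.7 CPM in the controls and 84.6, 85.7 and 76.9 CPM in the Runx3 libraries, so control 3 was lowest. Beyond the last peak of a recurring stretch, 42780054 to 42781041, the 12 peaks summed to 131 CPM in control 3 and to 145 to 184 CPM in the other libraries. Up to it, the 57 peaks summed to 929 CPM in control 3 and 542 to 764 CPM elsewhere.

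**Figure D3:**
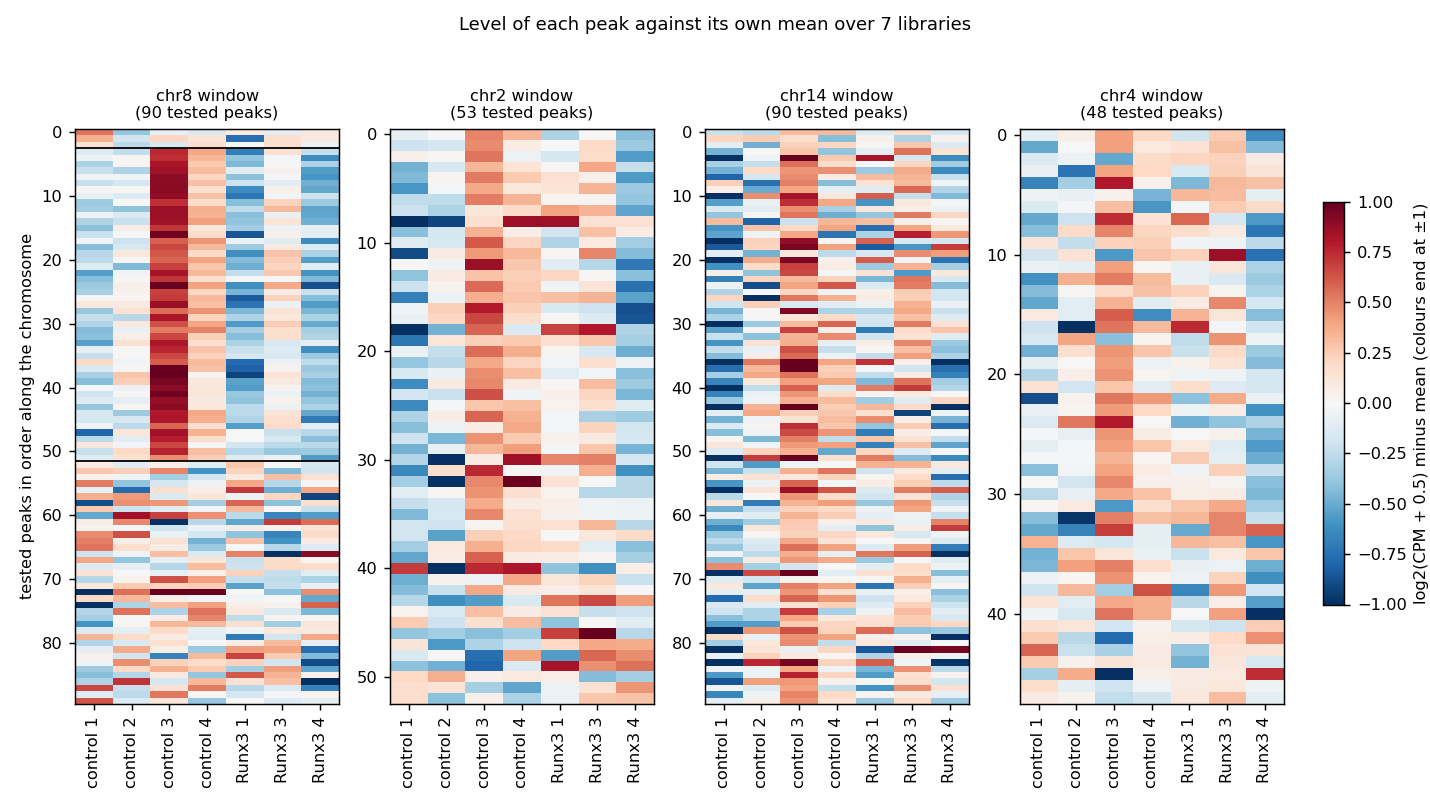
Log2(CPM + 0.5) of each tested peak minus its mean over 7 libraries, as colour from blue (low) to red (high), with peaks in order along the chromosome (vertical) and libraries side by side (horizontal), for each of the 4 windows. The 49 peaks of the chromosome 8 row, between the black lines, are all red in control 3, and the peaks around them are not.

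At the edges of the windows the pattern was not cut off by the boundary in every case. The last peak before the chromosome 2 window, 174966961 to 174967999, had 71.5 CPM in control 3 against a mean of 51.9 CPM in the other 6 libraries, and the first inside it, 175001331 to 175001568, had 0.800 against 1.36 CPM. On chromosome 14 the last peak inside, 7936836 to 7938585, had 66.7 against 46.7 CPM and the first after it, 8005961 to 8007757, had 61.3 against 50.8 CPM. On chromosome 4 the last peak before, 41991938 to 41993133, had 49.1 against 40.6 CPM, while the first inside, 42002817 to 42003231, had 3.73 against 3.04 CPM. On chromosome 8 the outermost peaks on both sides were flat, with 26.9 against 29.5 CPM at the first inside, 126001269 to 126002301, and 10.7 against 10.5 CPM at the last before it, 125991219 to 125991800.

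Among all 1883 windows of 1 Mb with at least 5 peaks and a mean of at least 200 counts, the 10 that make up the arrays stood high in variation, which the way they were chosen makes likely. The values that follow place them and support nothing beyond that. The SD of the log2 level over the 7 libraries had a median of 0.068 and a 95th percentile of 0.15. It ran from 0.15 to 0.36 in the array windows, of which 8 ranked in the top 20 and 9 in the top 50. The most variable was the second of the 5 windows of chromosome 14, at rank 3, and the least was the third of chromosome 2, at rank 89. Control 3 was the highest library in 10 of 10 array windows and in 10.8% of the others. The 7 windows that adjoin the arrays had SDs of 0.048 to 0.093.

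The arrays varied together. Between the chromosome 8 row and the arrays on chromosomes 2, 14 and 4, Pearson's r of the log2 levels over the 7 libraries was 0.856, 0.870 and 0.881. Between chromosomes 2 and 14 it was 0.938, between 2 and 4 it was 0.916, and between 14 and 4 it was 0.844. Spearman's rho for the 6 pairs ran from 0.857 to 0.964. Without control 3, r ran from 0.672 to 0.879, and without the 2 libraries farthest from the median of the first array of each pair it ran from 0.576 to 0.978. The pairs between the row and chromosomes 2 and 14 were those that fell most, to 0.576 and 0.620. The arrays were chosen with their levels in these libraries known, so some agreement between them is built in. The points also share libraries, depth and normalisation, so no p-value is given. The flat remainder of the chromosome 8 window gave r of 0.22 to 0.50 with the same arrays. Its log2 level had an SD of only 0.049 over the 7 libraries, so these r are imprecise.

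Other windows were compared with the mean profile of the 4 arrays. The profile is made from the array windows, so their own r with it is high by construction and is not read as a result. The other 1873 windows had a median r of -0.16, and 4 of them exceeded 0.9. The one with a wide range among these 4, the window from 15000001 to 16000000 on chromosome 8, had an SD of 0.26 (rank 16) and summed to 144, 175, 232 and 179 CPM in the controls and 145, 167 and 140 CPM in the Runx3 libraries. It was singled out after its values were seen.

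**Figure D4:**
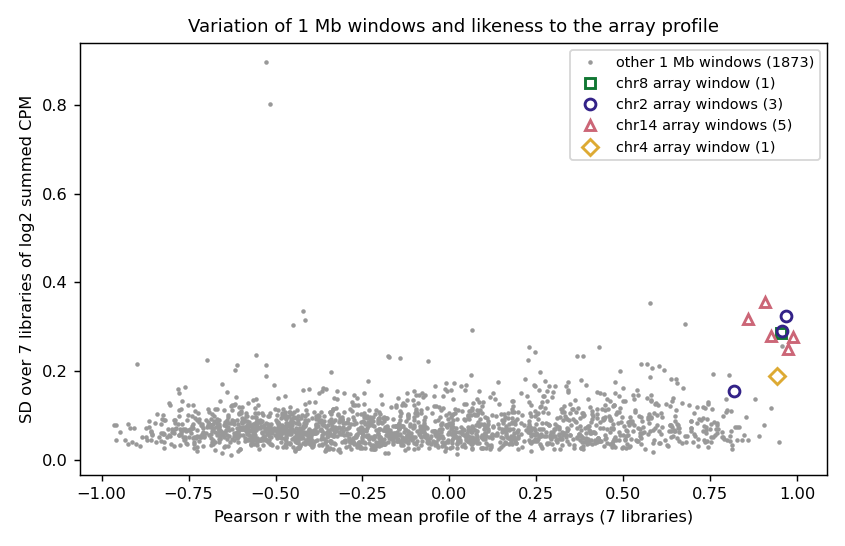
SD over 7 libraries of the log2 summed CPM (vertical) against Pearson's r with the mean profile of the 4 arrays (horizontal), with 1 point per 1 Mb window. The 10 array windows, marked by chromosome, lie at the right by construction, since the profile is made from them, with SDs of 0.15 to 0.36. The 1873 other windows are in grey.

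Sequencing depth moved with the arrays. Over the 7 libraries r of the log2 level with the log2 total count was 0.864 for the row, 0.638 for chromosome 2, 0.685 for chromosome 14, 0.588 for chromosome 4 and 0.337 for the flat remainder. Without control 3 these values were 0.878, 0.440, 0.509, 0.356 and 0.037. Control 4, the deepest library, was second highest in the row and on chromosome 2 but not on chromosomes 14 and 4, where Runx3 3 stood above it. The part of depth in the levels was not tested.

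Runx3 and control libraries were then compared, which is the contrast the study was built on. No array peak was called at an adjusted p under 0.05. The quasi-likelihood test of edgeR, with Benjamini-Hochberg adjustment over 57504 peaks, called 0 of 281 tested members. The background was 0.0730% (0.0400% lower and 0.0330% higher). DESeq2 also called 0 members. In simulated counts the edgeR test recovered 7 of 50 peaks changed 1.5-fold and 26 of 50 changed 2-fold. Changes of this size or smaller could therefore go uncalled. The simulated peaks varied independently, with the spread typical of all tested peaks. The median SD of the log2 level was 0.386 in the tested members and 0.309 over all tested peaks, so recovery in the arrays may be lower. At an unadjusted p under 0.05, 44 members were lower and 5 higher in the Runx3 libraries. Of the 44, 25 were among the 49 peaks of the chromosome 8 row, 3 among the 41 around it, 10 among the 53 on chromosome 2, 3 among the 90 on chromosome 14 and 3 among the 48 on chromosome 4, where the background for lower peaks was 4.39% and for higher peaks 3.91%. Members of the row share their variation between libraries, so their count does not stand for that many separate differences. The windows were also chosen by their levels in these libraries, so the counts above the background describe them and support nothing beyond that. Without control 1, 13 members were called, all lower: 5 in the row, 3 around it, 4 on chromosome 2 and 1 on chromosome 14. That fit called 267 of all 57271 peaks tested, against 42 of 57504 with every library. Without control 3, 0 members were called and 12 were lower at an unadjusted p under 0.05. That fit called only 5 of all 53913 peaks tested. The share of all peaks lower at that p without control 3 is not given here, so the 12 have no background beside them.

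All 49 row peaks had a negative log2 fold change in the fit, from -0.81 to -0.27, with a median of -0.49. The medians were -0.13 around the row, -0.10 on chromosome 2, -0.12 on chromosome 14 and -0.10 on chromosome 4, and -0.01 over all tested peaks. Without control 3, those of chromosomes 2 and 14 were above 0, at 0.05 and 0.02. Without Runx3 4, that of chromosome 2 was 0.03.

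**Figure D5:**
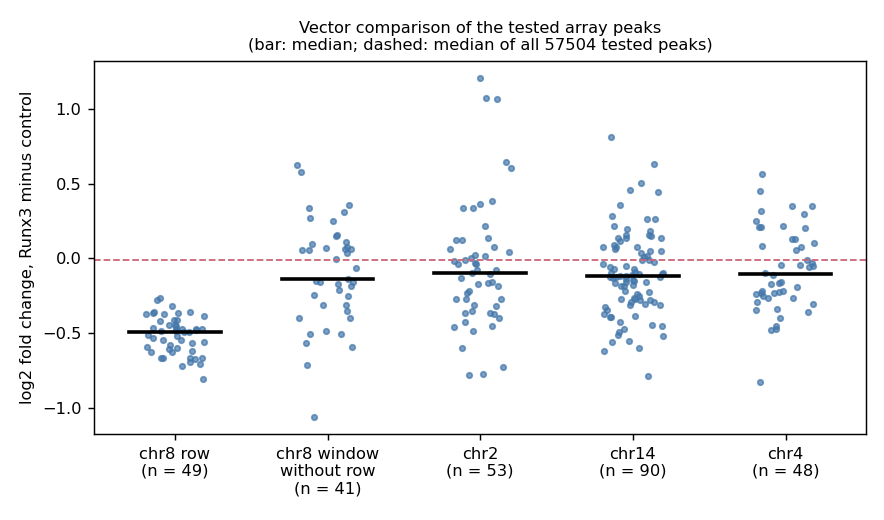
Log2 fold change of each tested array peak, Runx3 minus control (vertical), with 1 point per peak, a black bar for the median of each array and a dashed line for the median of all 57504 tested peaks. The row on chromosome 8 lies wholly below 0, from -0.81 to -0.27, and the other groups spread on both sides.

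The summed levels overlapped between vectors in each array. The row had 1381 ± 447 CPM in the controls (SD, n = 4) and 983 ± 182 CPM in the Runx3 libraries (SD, n = 3), a log2 ratio of -0.49, or -0.26 without control 3. Chromosome 2 had 1413 ± 297 against 1284 ± 175 CPM (log2 ratio -0.14), chromosome 14 had 1229 ± 314 against 1131 ± 139 CPM (-0.12), and chromosome 4 had 903 ± 113 against 821 ± 119 CPM (-0.14). Without control 3 these 3 ratios were -0.01, 0.05 and -0.05. Depth also differed between the vectors, with some overlap. Total counts were 2188113, 2799286, 3709974 and 3758422 in controls 1 to 4, and 1738164, 2576715 and 2401700 in Runx3 1, 3 and 4. The row's level rose with depth, and the part of depth in these ratios and in the fold changes above was not tested.

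The libraries also fall into 2 sets that separate 57 peaks elsewhere in the table by at least 8-fold, none of them in the arrays. Controls 1 and 2 with Runx3 1 form the first, and controls 3 and 4 with Runx3 3 and 4 the second. The labels give no such sets. Within the first set the log2 ratio of Runx3 to control was -0.28 for the row, 0.21 for chromosome 2, 0.14 for chromosome 14 and 0.03 for chromosome 4. Within the second it was -0.71, -0.41, -0.34 and -0.27. Of these 4, only the row was lower in both sets. In the first set this rests on Runx3 1, the library with the fewest counts, so it is a description and not separate support. For the 11 isolated peaks of chromosome 14 the ratio was 0.72 in the first set and -1.01 in the second. The first set holds a single Runx3 library, so these differences were not tested.

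In single peaks of the arrays, all Runx3 libraries lay below all controls at 5 peaks of the row, 1 around it, 2 on chromosome 2, 0 on chromosome 14 and 1 on chromosome 4, where the background was 4.58%. All lay above at 2 around the row, 4 on chromosome 2 and 1 on chromosome 14, with a background of 4.36%. The share of lower peaks was 10.2% in the row but 3.20% over all 281 tested members, below the background. That of higher peaks was 7.55% on chromosome 2 but 2.49% over all tested members, also below the background.

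The row's smallest adjusted p, 0.124 by edgeR's quasi-likelihood test, belonged to the peak at 126104939 to 126105357. It had 26.0, 25.7, 44.0 and 29.8 CPM in the controls and 14.3, 23.2 and 16.2 CPM in the Runx3 libraries, a log2 fold change of -0.81 ± 0.20 (SE). The groups did not overlap, although the gap between Runx3 3 and control 2 was narrow. With the library set or the replicate number as a term its adjusted p in edgeR was 0.027 and 0.0097, and without control 1 it was 0.020. No array peak was called with other scalings, without the filter on low counts, with DESeq2 or with any other single library left out. The labels give neither the library sets nor a pairing by replicate number. The next row peak by p, 126145523 to 126146234, had 23.2, 31.4, 46.9 and 33.7 CPM in the controls and 22.3, 20.9 and 21.2 CPM in the Runx3 libraries, with an adjusted p of 0.148.

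On chromosome 2 the peak at 175964042 to 175965086 had 27.9, 33.9, 50.1 and 34.0 CPM in the controls and 25.7, 24.7 and 15.4 CPM in the Runx3 libraries. Its log2 fold change was -0.77 ± 0.19 (SE) with an adjusted p of 0.136 by edgeR's quasi-likelihood test, and the groups did not overlap. In edgeR its adjusted p was 0.0242 with the replicate number as a term and 0.00698 without control 1. This peak was not called with the library set as a term or in any other fit. The peak at 175736650 to 175737587 had 28.4, 27.5, 52.0 and 34.2 CPM in the controls and 26.3, 23.2 and 17.0 CPM in the Runx3 libraries, with an adjusted p of 0.247, or 0.0217 with the replicate number as a term. It was called in no other fit. The smallest adjusted p was 0.532 on chromosome 14, at a peak from 7436574 to 7436916 that was higher in the Runx3 libraries (log2 fold change 0.81 ± 0.36, SE), and 0.409 on chromosome 4, at 42780054 to 42781041 (-0.45 ± 0.17, SE).

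In the edgeR test of counts summed over 2195 windows of 1 Mb, none was called, and 191 (8.70%) had an unadjusted p under 0.05, with 3.51% of all windows lower in Runx3 at that p. None of the 10 array windows was among them. The adjusted p of the 10 array windows ran from 0.701 to 0.999. Without control 1, 23 windows were called, and 0 of them were array windows.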

How the data were processed

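Chromatin accessibility was measured by ATAC-seq in 7 libraries. The values are whole-number read counts per peak in a table deposited by the authors, with 98723 peaks named by mm9 coordinates. The submitters' processing notes list Bowtie2, Picard, MACS2, SAMtools, Trim Galore and FastQC, with no versions. How reads with several matches, duplicates and the transposase offset were handled is not given in the sources used here, and neither is whether peak starts count from 0 or 1.

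The arrays and lists were chosen with earlier results of these data known. Counts were fitted with edgeR 4.0.16 (quasi-likelihood test, robust, TMM, filterByExpr with a minimum count of 10 and total of 15), with vector as the only term and Benjamini-Hochberg adjustment over 57504 peaks, and likewise over 2195 windows of 1 Mb holding at least 5 peaks. CPM used TMM factors, with 0.5 added for logs. The steps were tested on simulated data. Named peaks were, per window, the 4 with the highest mean CPM, the 2 with the smallest p, the 2 with the largest SD, and those next to a boundary. Windows and gene runs carry no coordinate join, since builds differ. Alternatives were DESeq2 1.42.0, other scalings, no filter, the replicate number or library set as a term, and each library left out. Libraries held 1738164 to 3758422 counts, so 3 counts stand for 0.798 to 1.73 CPM, and counting error limits the low peaks most.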

Additional observations from a re-analysis of the deposited data

Results flagged for a closer look

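Among 37 values over the 4 controls, for the arrays and the named peaks, 2 had a control far from the other 3 by the gap between it and its nearest neighbour as a share of the whole range, above the 95% limit of Dixon's criterion. Chance gives about 1 in 20 for separate values picked without regard to their spread. That rate does not apply here, since some peaks were named for a large SD or a small p and the values share libraries. The chromosome 2 peak below was named for its large SD. At the chromosome 8 peak from 126794878 to 126795901, outside the row, control 3 had 52.0 CPM against 41.2 to 42.5 CPM in the other controls, a share of 0.879. At the chromosome 2 peak from 177660141 to 177660795, control 2 had 4.28 CPM against 18.9 to 20.5 CPM, a share of 0.90, and the Runx3 libraries had 8.57, 7.34 and 12.1 CPM.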

How the results depend on the processing

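Over all peaks, 19 were called higher and 23 lower in Runx3. These counts were 41 higher without a filter on low counts, 2 and 1 with DESeq2, 30 and 71 with the replicate block, and 0 to 73 and 0 to 194 with 1 library left out. Array peaks called lower, 0 in the main test, were 5 with the replicate block, 1 with the library set as a term and 0 to 13 with 1 library left out, where 13 came without control 1. Called windows, 0 in the main test, were 1 with the replicate block and 0 to 23 with 1 library left out. The median log2 fold change with 1 library left out ran from -0.2133 to 0.0499 on chromosome 2, above 0 without control 3 and without Runx3 4, and from -0.2073 to 0.016 on chromosome 14, above 0 without control 3. In the first library set the log2 ratio turned to 0.21 on chromosome 2, 0.14 on chromosome 14, 0.03 on chromosome 4 and 0.0029 around the row, and in the second that of chromosome 2 was -0.41. Without the 2 farthest libraries r between the row and chromosomes 2 and 14 was 0.576 and 0.620. Leaving out each library for the correlations was chosen after seeing the data. The cause of these differences was not tested. Same-numbered libraries correlated at 0.124, 0.108 and 0.067 in their deviations, each the highest r of its Runx3 library. The next highest were 0.102, 0.095 and 0.030, and control 4 correlated best with Runx3 3, at 0.095. The block rests on replicate numbers, and these were not shown to pair the libraries. At 0.798 to 1.73 CPM for 3 counts, depth limits the precision of the array peaks of few CPM most.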
